A study of Mus musculus with 24 samples.

Results

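Gene expression was compared between the GFP-negative and the YFP-positive luminal cells of the pubertal mouse mammary gland, which are the hormone-receptor-rich luminal gates of a pair of reporter models. The comparison was set by the sample titles and rests on 8 of the 24 bulk RNA-seq libraries of the series, 4 GFP-negative and 4 YFP-positive. Each gate was sorted from ducts and from terminal end buds (TEBs), the bulbous tips by which the pubertal tree grows, with 2 libraries per tissue. Another 8 libraries, 4 of basal cells of the Elf5 model and 4 of basal cells of the PRcr model, were used to measure how the models differ outside the luminal gate.

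The GFP-negative cells came from mice carrying Elf5-rtTA-IRES-GFP, in which GFP follows the Elf5 gene, and were the luminal cells without GFP. The YFP-positive cells came from mice carrying PR-cre and Rosa26-LSL-eYFP, in which Cre made in progesterone receptor cells switches on eYFP. That switch is permanent, so YFP also marks cells that expressed PR-cre earlier. One gate is therefore defined by the lack of a signal and the other by its presence, and gate and mouse model change together. All groups were lineage-negative EpCAM+ cells of microdissected tissue. Luminal cells had low CD29, and basal cells had high CD29. The labels give neither the strain nor the age in days. Whether replicate libraries stand for different mice is not stated either, so p-values measure the spread between libraries, part of which may be technical.

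Luminal cells of the mammary gland fall into a hormone-sensing branch, which carries the oestrogen, progesterone and prolactin receptors, and a secretory branch, which depends on the transcription factor Elf5. Hormone-sensing cells answer systemic hormones by secreting local signals such as amphiregulin, Wnt4 and RANKL, which act on neighbouring cells. During puberty the TEBs extend the tree into the fat pad, and the ducts behind them mature.

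Both gates carried the hormone-sensing profile. The counts of each library are given as CPM, counts per 1e6 counts after scaling of the library sizes, and the 4 values of a gate are listed as TEB replicates 1 and 2 and then duct replicates 1 and 2. The summed level of 15 hormone-sensing genes lay between 7161 and 9954 CPM in GFP-negative libraries and between 8362 and 11520 CPM in YFP-positive libraries. The other luminal gates had less, from 779.1 to 1381 CPM with GFP and from 459.1 to 974.3 CPM without YFP. Basal libraries of the Elf5 and PRcr models had between 98.63 and 148.5 CPM. The labels of both gates thus match their markers. Within each tissue the sum was lower in GFP-negative libraries, with 7272 and 7161 CPM against 8386 and 8362 CPM in YFP-positive TEBs, and 9954 and 7230 CPM against 11520 and 11160 CPM in YFP-positive ducts.

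Differences are log2 fold changes of GFP-negative over YFP-positive cells, averaged over TEBs and ducts, from edgeR's quasi-likelihood test with Benjamini-Hochberg adjustment over 18109 genes. A gene was called at an adjusted p under 0.05. In this comparison 1498 genes (8.27%) were higher and 1428 genes (7.89%) were lower in GFP-negative cells, and 628 and 569 of these changed over 2-fold. Of the called genes, 1231 higher and 1209 lower ones had libraries that did not overlap in either tissue, against 10.9% and 11.8% of all genes tested whose libraries lay apart in the same way. Bulk libraries cannot tell fewer expressing cells from less RNA per cell, here and in every result that follows.

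The same contrast was drawn between basal Elf5 and basal PRcr cells, where the luminal gates play no part. It called 823 genes higher (4.54%) and 985 genes lower (5.44%) in basal Elf5 cells. The overlap with the luminal calls in the same direction was 333 higher genes, which are 22.2% of the luminal and 40.5% of the basal list, and 383 lower genes, which are 26.8% and 38.9%. These 716 shared genes are 3.95% of all genes tested. The luminal and basal comparisons have no library in common, and another 67 higher and 47 lower luminal genes were called the other way in basal cells.

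Subtracting the basal model difference from the luminal difference, gene by gene in the same fit, left 630 genes higher (3.48%) and 509 genes lower (2.81%). The subtraction takes the log2 model difference as equal in basal and luminal cells, which was not tested. Of the luminal calls, 411 higher and 350 lower genes, 761 in all (4.2% of the genes tested), were also called in that direction after the subtraction, and for 326 and 279 of these the basal difference itself was not called. A further 206 higher and 150 lower genes were called after the subtraction with no luminal call, and for 167 and 121 of these the basal cells differed in the opposite direction. Elf5 itself belongs here. It had 26.9, 28.1, 37.7 and 68.2 CPM in GFP-negative libraries and 22.8, 15, 77.8 and 87.3 CPM in YFP-positive libraries. The difference between tissues was not called, though Elf5 was higher in GFP-negative TEBs and lower in GFP-negative ducts, without overlap in either. In basal cells it had 16.9, 19.3, 22.9 and 29.2 CPM in the Elf5 model and 1.02, 1.39, 1.48 and 3.37 CPM in the PRcr model. Its luminal log2 difference was -0.05 (SE 0.20, adjusted p = 0.952), its basal one 3.67 (SE 0.24, adjusted p = 1.05e-07), and the value after subtraction -3.72 (SE 0.31, adjusted p = 3.48e-06) comes from the basal side.

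**Figure D1:**
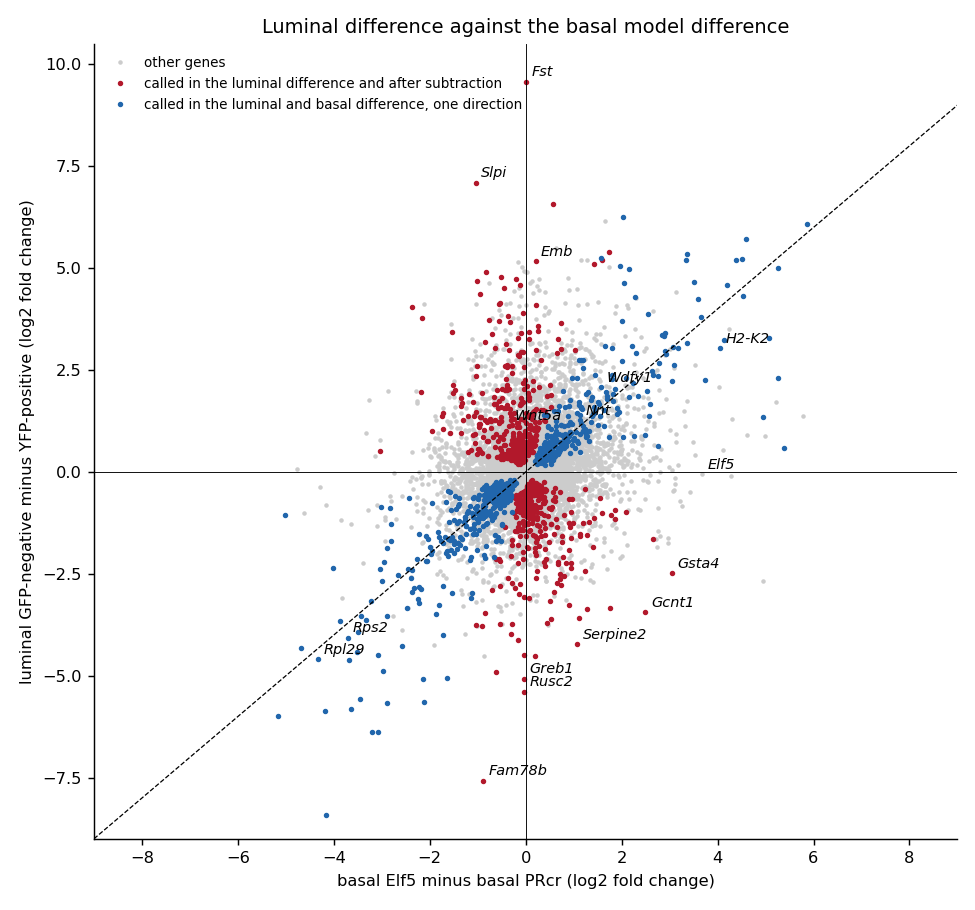
Log2 difference of each gene between luminal GFP-negative and YFP-positive cells (vertical axis) and between basal Elf5 and basal PRcr cells (horizontal axis). Luminal genes called again after the subtraction are in red, and genes called in the same direction in both comparisons are in blue. Of the genes tested, 15232 are plotted, 1 lies outside the axes and 2876 with a compared group at 0 counts are not plotted. The 671 plotted shared genes lie near the diagonal. The red ones lie away from it, as their choice by the subtraction requires.

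One GFP-negative library stood apart. The keratinocyte list, of 12 genes, summed to 35.03, 51.53, 28.94 and 2899 CPM in GFP-negative libraries and to 29.32, 19.34, 29.1 and 24.95 CPM in YFP-positive libraries, so GFP-negative duct replicate 2 alone was high. The basal and myoepithelial list of 14 genes gave 33.6, 32.98, 49.52 and 3579 CPM in GFP-negative libraries, against 32.05, 32.99, 56.46 and 46.25 CPM in YFP-positive libraries. Outside that library the basal sums of the gates overlapped, and basal cells of the Elf5 and PRcr models had between 8228 and 40240 CPM. Without GFP-negative duct replicate 2, 1295 genes were higher and 1634 lower in the luminal comparison (7.15% and 9.02%), and 688 were higher and 776 lower after the subtraction (3.8% and 4.29%). Of the calls made with it, 1127 higher and 1141 lower luminal genes were made again without it, as were 564 higher and 442 lower genes after the subtraction. For the gene lists described below, counts without this library are given where they change.

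Markers of cells outside the gates were read in the same way. The fibroblast list of 12 genes summed to 145.5, 120.2, 139.2 and 383.3 CPM in GFP-negative libraries and to 33.52, 64.9, 32.16 and 61.31 CPM in YFP-positive libraries, with no overlap, and to between 886.7 and 6449 CPM in basal libraries. No fibroblast gene was at 0 in a GFP-negative library. Of the 12, 3 were called higher (2 without GFP-negative duct replicate 2), against 8.27% of all genes. Among them were the collagen gene Col3a1 and the growth factor receptor gene Pdgfra. Pdgfra had 1.97, 1.84, 1.71 and 2.33 CPM in GFP-negative libraries and 0.506, 0.138, 1.32 and 1.89 CPM in YFP-positive libraries. The immune list of 13 genes stayed at or under 3.611 CPM in sum in GFP-negative libraries and 3.734 CPM in YFP-positive libraries, with between 3 and 8 of its genes at 0 in each GFP-negative library, among them the T cell receptor subunit gene Cd3g in all 4. The endothelial and pericyte list of 10 genes ran the other way in its sum. It had 56.15 to 100.4 CPM in GFP-negative libraries and 86.08 to 170.8 CPM in YFP-positive libraries. The list's median log2 difference was 0.76, though, with 1 gene called higher and 1 lower, against 8.27% and 7.89% of all genes. What part these transcripts have in the gate difference was not tested.

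**Figure D2:**
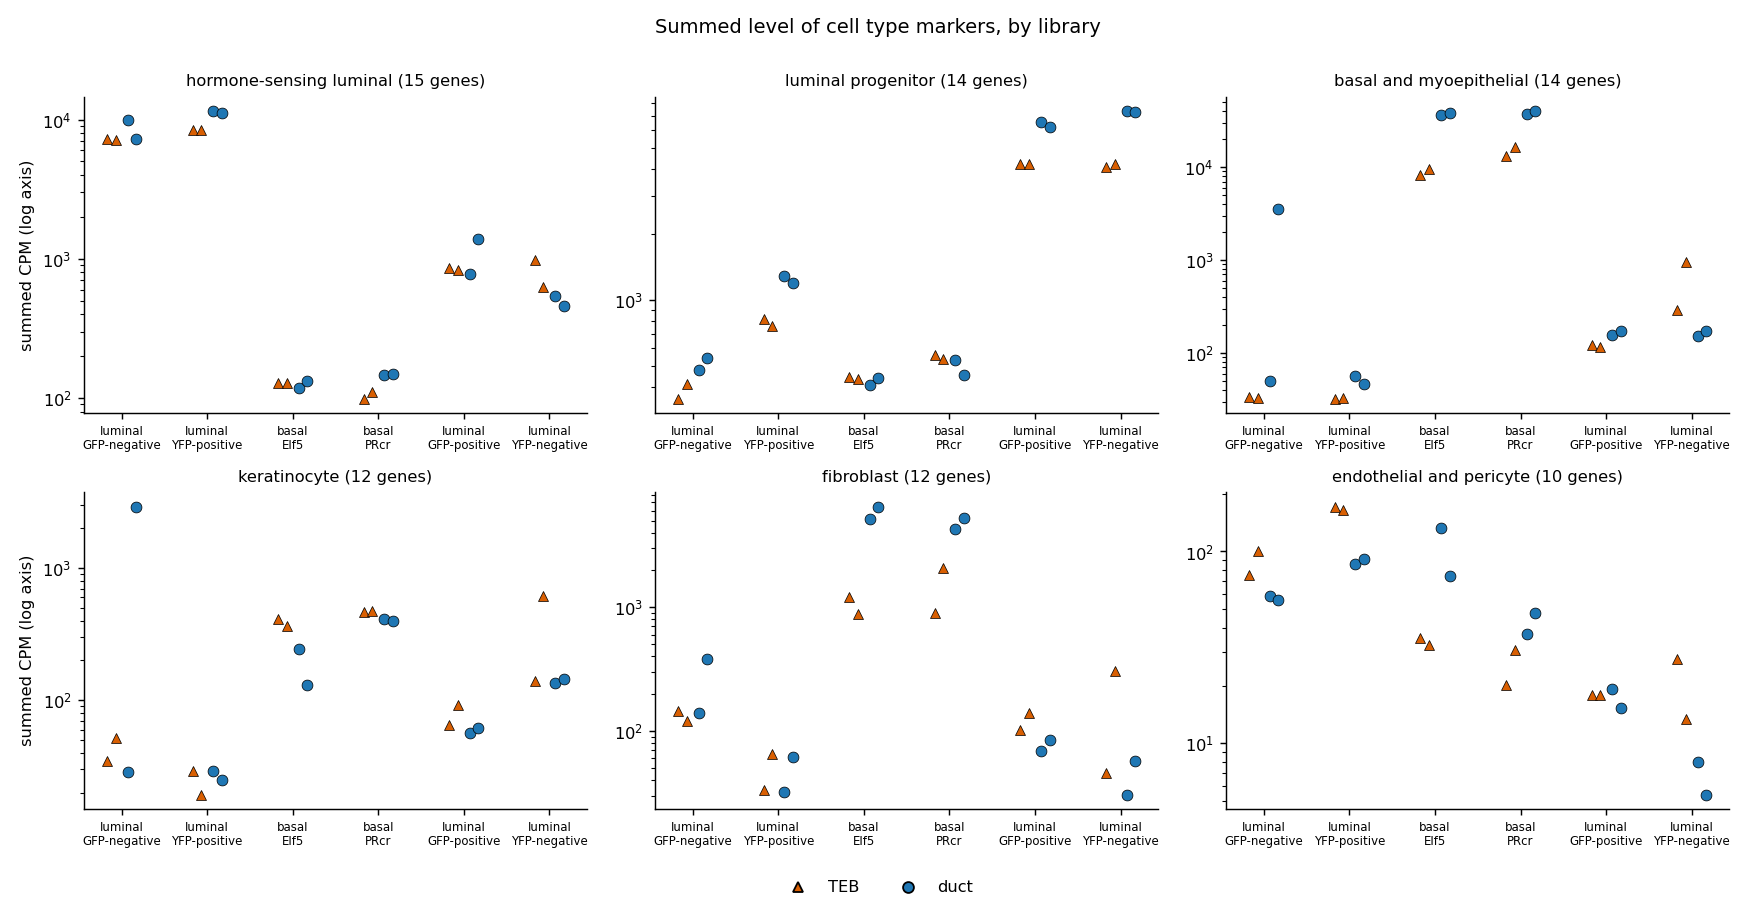
Summed CPM of 6 marker lists (log axis) in each library of the 6 sorted populations, TEB and duct libraries marked apart. GFP-negative and YFP-positive libraries share high hormone-sensing sums, and GFP-negative duct replicate 2 stands out with 2899 CPM of keratinocyte and 3579 CPM of basal transcripts.

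The genes that differed most after the subtraction included secreted regulators. Fst (chr13:114452262-114458989, GRCm38) encodes follistatin, which binds and blocks activins. It had 764, 926, 92.1 and 111 CPM in GFP-negative libraries and 0.528, 0.807, 0.299 and 0.120 CPM in YFP-positive libraries. Every GFP-negative library was far above every YFP-positive one, and within the GFP-negative gate the TEBs were above the ducts. The luminal log2 difference was 9.58 (SE 0.80, adjusted p = 2.52e-06). Basal cells had between 203 and 381 CPM in the Elf5 model and between 251 and 375 CPM in the PRcr model, so the subtraction left 9.57 (SE 0.93, adjusted p = 3.6e-05). The other gates of the same mice averaged 30.5 CPM (GFP-positive) and 5.75 CPM (YFP-negative).

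Slpi encodes a secreted inhibitor of leukocyte proteases. It had 734, 575, 197 and 48.2 CPM in GFP-negative libraries, against 4.62, 2.31, 1.29 and 1.14 CPM in YFP-positive libraries. The gates did not overlap, and the log2 difference was 7.10 (SE 0.56, adjusted p = 1.2e-06), or 8.14 after the subtraction (adjusted p = 1.14e-05). Emb, the membrane glycoprotein embigin, had 83.9, 103, 55.2 and 54.6 CPM in GFP-negative libraries and 6.05, 4.36, 1.29 and 0.150 CPM in YFP-positive libraries. Its log2 difference was 5.17 (adjusted p = 1.84e-06) and 4.96 after the subtraction (adjusted p = 6.65e-05). Acpp, an acid phosphatase, was higher by 5.29 after the subtraction (adjusted p = 3.07e-05), with 8.53 to 136 CPM in GFP-negative and 0.438 to 1.77 CPM in YFP-positive libraries. Kif26b, a kinesin family gene, was higher by 5.31 (adjusted p = 0.000833), with 0.532 to 12.4 CPM in GFP-negative and 0 to 0.484 CPM in YFP-positive libraries.

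Fst, Slpi, Emb, Acpp and Kif26b were all well expressed in basal cells of at least one tissue in both models. Emb, for example, had 605, 630, 249 and 190 CPM in basal Elf5 cells and 550, 462, 177 and 226 CPM in basal PRcr cells. The basal marker sums were 33.6 and 32.98 CPM in GFP-negative TEBs and 32.05 and 32.99 CPM in YFP-positive TEBs. In GFP-negative duct replicate 2 the sum was 3579 CPM, and Acpp was highest there, at 136 CPM. What part basal transcripts have in the differences of these 5 genes was not tested. All 5 genes were called in the same direction, before and after the subtraction, without GFP-negative duct replicate 2. Between the other luminal gates, GFP-positive minus YFP-negative, Fst (2.485) and Slpi (3.08) were called higher too. Acpp (-1.80) and Kif26b (-1.83) were called lower there, and Emb was not called (1.21, adjusted p = 0.0673). Fat3, an atypical cadherin, and Pcdhac2, a protocadherin, were also among the 10 largest rises, at 6.42 (adjusted p = 0.00571) and 5.72 (adjusted p = 0.000517) after the subtraction. Fat3 was mainly a TEB transcript, with 42.6 and 35.6 CPM in GFP-negative TEBs and 0.644 and 1.77 CPM in GFP-negative ducts.

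Some genes were close to absent from YFP-positive cells. Ang5, a ribonuclease gene of the angiogenin family, had 41.9, 45.5, 24.7 and 31.8 CPM in GFP-negative libraries and 0 counts in all 4 YFP-positive libraries. Set against a floor of 3 counts over the 4 libraries, its level was at least 1986-fold higher. Its relative Ang4 was at least 342-fold higher, with 3.72 to 7.51 CPM in GFP-negative libraries. Members of this family are close copies of each other, and how reads were shared among them is not given, so the split between Ang4 and Ang5 is uncertain. In the other luminal gates Ang5 averaged 4.61 CPM in GFP-positive and 0 CPM in YFP-negative cells, and basal cells of either model had under 0.1 CPM. The subtraction cannot tell a model difference limited to luminal cells from a gate difference for any gene. For Ang5 basal cells moreover hardly express the gene. Between the other luminal gates, GFP-positive minus YFP-negative, edgeR gave 10.50 for Ang5 (adjusted p = 2.07e-06) and 7.48 for Ang4 (adjusted p = 0.000435). What part the model has in the luminal difference of these genes was not tested. Cdh18, a cadherin, had 22.4, 30.3, 10.6 and 16.6 CPM in GFP-negative libraries and 2 counts in all over the YFP-positive libraries, and is likewise near 0 in basal cells, where the test after the subtraction, averaged over tissues, gave no usable p. In TEBs alone Cdh18 was called after the subtraction (adjusted p = 0.00249), and Ang5 was called in the average over tissues (adjusted p = 0.00428). Cdh18 averaged 1.20 CPM in GFP-positive and 0 CPM in YFP-negative cells, a log2 difference of 8.35 (adjusted p = 0.000115).

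**Figure D3:**
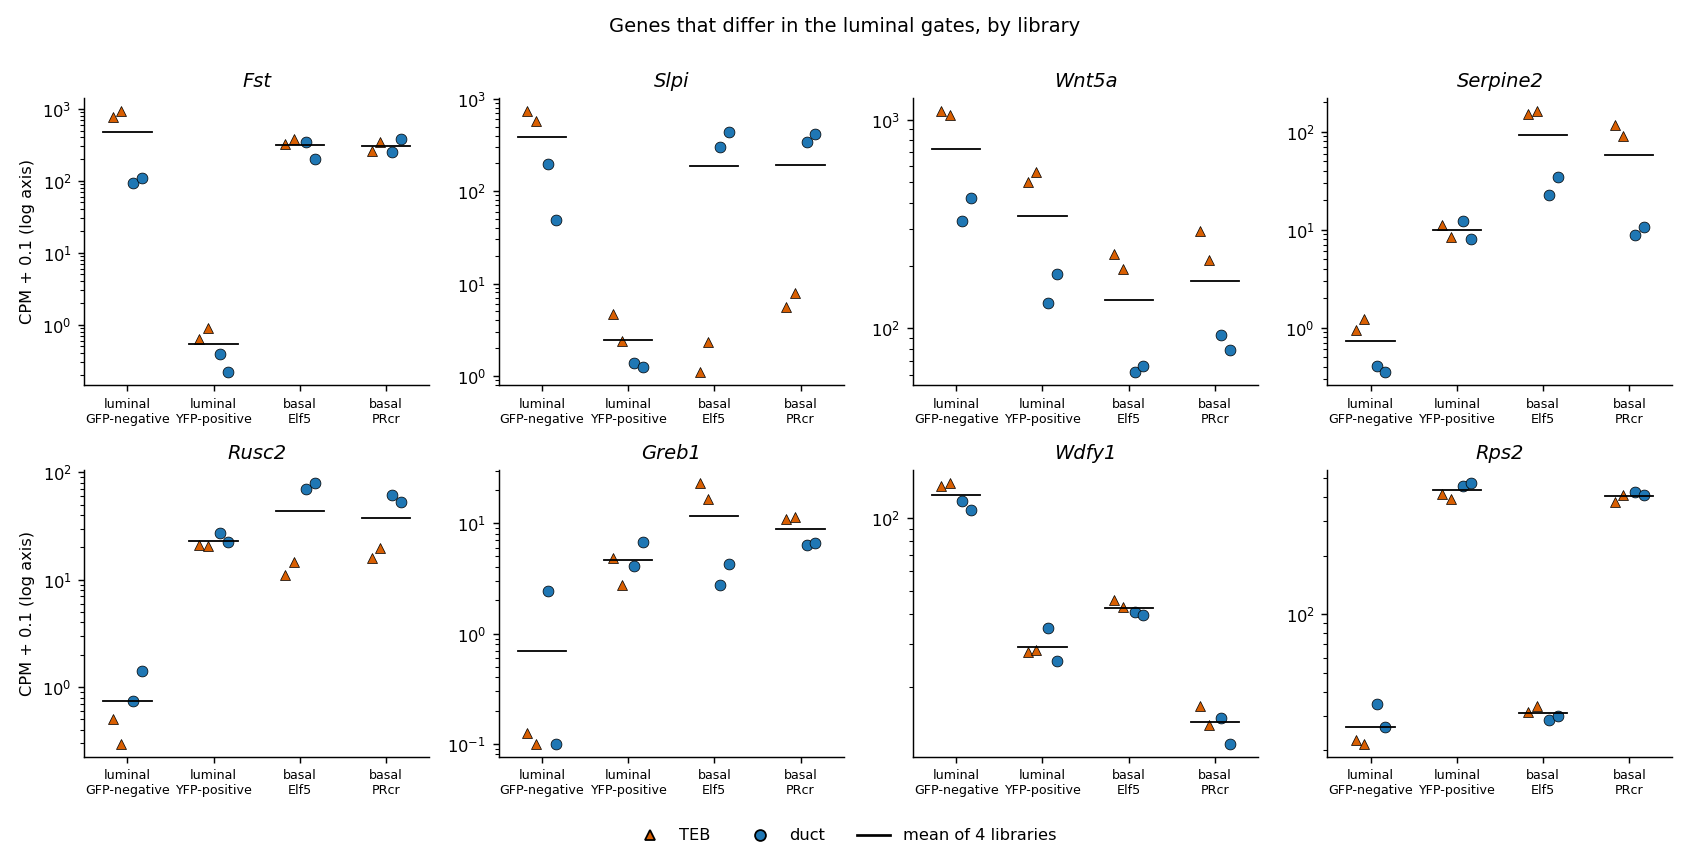
CPM plus 0.1 (log axis) of Fst, Slpi, Wnt5a, Serpine2, Rusc2, Greb1, Wdfy1 and Rps2 in each library of GFP-negative, YFP-positive, basal Elf5 and basal PRcr cells, TEB and duct libraries marked apart. Fst and Slpi are high and Rusc2 and Serpine2 low in GFP-negative cells with little or no like change in the basal pair, whereas Wdfy1 and Rps2 separate the basal pair in the same direction.

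Among the genes lower in GFP-negative cells, Rusc2 (chr4:43377202-43427092), is an adaptor gene with RUN and SH3 domains. It had 0.410, 0.197, 0.644 and 1.32 CPM in GFP-negative libraries and 21.2, 20.7, 27.3 and 22.3 CPM in YFP-positive libraries. The gates did not overlap in either tissue. The log2 difference was -5.39 (SE 0.23, adjusted p = 1.29e-10), and -5.35 (SE 0.29, adjusted p = 1.28e-08) after the subtraction. Serpine2, an inhibitor of serine proteases, had 0.846, 1.11, 0.308 and 0.252 CPM in GFP-negative libraries and 11.1, 8.41, 12.1 and 8.01 CPM in YFP-positive libraries. In basal cells it ran the other way, higher by 1.08 in the Elf5 model (adjusted p = 0.000655), so its luminal difference of -4.23 became -5.31 after the subtraction (adjusted p = 1.28e-08). Between the other luminal gates, GFP-positive minus YFP-negative gave -0.67 for Rusc2 (adjusted p = 0.0131) and -2.17 for Serpine2 (adjusted p = 1.78e-06).

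Gcnt1 and Gsta4 showed the same opposition of gates and models. Gcnt1 makes the core 2 branch of O-linked glycans. Its log2 difference was -3.44 in luminal cells and 2.50 in basal cells, which gave -5.94 after the subtraction (adjusted p = 6.22e-07). Gsta4 is a glutathione transferase that detoxifies lipid aldehydes. It had 13.6, 23.0, 6.83 and 6.65 CPM in GFP-negative libraries and 113, 134, 30.9 and 31.4 CPM in YFP-positive libraries, with a basal difference of 3.05 and a value after the subtraction of -5.53 (adjusted p = 3.62e-07). For Gcnt1, 2.50 of the 5.94 comes from the basal term, and for Gsta4 3.05 of the 5.53, so the size after the subtraction is not that of the luminal difference alone. GFP-positive minus YFP-negative cells went the way of the basal pair, at 3.67 for Gcnt1 (adjusted p = 1.11e-06) and 1.37 for Gsta4 (adjusted p = 0.00149).

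Secreted and regulatory genes were among the other falls. Mgp, a secreted inhibitor of calcification, had 0.813 to 3.72 CPM in GFP-negative and 8.30 to 40.9 CPM in YFP-positive libraries. Msc, the bHLH repressor musculin, had 1.79 to 4.68 CPM in GFP-negative and 22.6 to 37.3 CPM in YFP-positive libraries. Neither gene's gates overlapped, and the values after the subtraction were -4.17 for Mgp (adjusted p = 0.00012) and -5.10 for Msc (adjusted p = 0.00623). For Msc the luminal difference was -3.33 (adjusted p = 0.000263). The rest came from a basal difference of 1.76 that was not called (adjusted p = 0.285), at means of 0.199 CPM in basal Elf5 and 0.0628 CPM in basal PRcr cells. Fam78b stood at -6.68 (adjusted p = 5.26e-05) after the subtraction. The actin regulator gene Enah stood at -4.28 (adjusted p = 6.05e-07), of which the luminal difference was -1.64 and the rest came from a basal difference of 2.65. Slc5a7, a choline transporter gene, had 3 counts in all over the GFP-negative libraries and 2.49, 1.08, 42.7 and 17.4 CPM in YFP-positive libraries. In the other luminal gates it averaged 339 CPM in YFP-negative and 0.0458 CPM in GFP-positive cells, a difference of -13.92 (adjusted p = 1.58e-08). It was also lower in basal Elf5 cells, at -4.17 (adjusted p = 0.00537), and was not called after the subtraction (adjusted p = 0.519).

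The receptors and the main paracrine genes of hormone-sensing cells did not pass the test. Esr1, the oestrogen receptor, had 117, 140, 152 and 168 CPM in GFP-negative libraries and 183, 159, 206 and 164 CPM in YFP-positive libraries, a log2 difference of -0.31 (SE 0.16, adjusted p = 0.213). Pgr, the progesterone receptor, had 447, 202, 635 and 396 CPM in GFP-negative libraries and 351, 332, 476 and 472 CPM in YFP-positive libraries, a difference of 0.02 (SE 0.29). The gates overlapped for both receptors. Prlr, the prolactin receptor, gave -0.48 (SE 0.35, adjusted p = 0.404), the pioneer factor Foxa1 gave -0.11 (SE 0.26), amphiregulin (Areg) -0.15 (SE 0.43) and Wnt4 -0.17 (SE 0.18). These values do not show that the levels were equal.

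Of the 14 hormone-sensing genes tested, 2 were called, both lower in GFP-negative cells, against 7.89% of all genes. The list's median was -0.13, against 0 over all genes. Greb1, a cofactor gene that oestrogen induces, had 0.0256, 0, 2.32 and 0 CPM in GFP-negative libraries and 4.75, 2.65, 3.98 and 6.63 CPM in YFP-positive libraries. The difference was -5.07 (SE 0.92, adjusted p = 0.00146), and -5.03 after the subtraction (adjusted p = 0.0157), while basal cells of both models had between 2.63 and 23.1 CPM. The T-box factor gene Tbx3 had 90.8, 127, 141 and 141 CPM in GFP-negative libraries, against 226, 228, 248 and 288 CPM in YFP-positive libraries. Its difference of -1.0 (adjusted p = 0.000792) stood beside one of -1.23 in basal cells (adjusted p = 0.000237), and 0.23 was left after the subtraction (adjusted p = 0.728). On a separate list of oestrogen and progesterone targets, 3 of 15 genes tested were lower and 0 higher, with a median of -0.02. Without GFP-negative duct replicate 2, 2 were lower. Ccnd1, the cell cycle regulator cyclin D1, is not among the 14 hormone-sensing genes. It fell by 0.71 (adjusted p = 0.0352), but not without GFP-negative duct replicate 2 (adjusted p = 0.124).

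The prolactin and Stat5 list had 2 members higher and 2 lower of 10, against 8.27% and 7.89% of all genes, and 1 higher and 3 lower without GFP-negative duct replicate 2. Stat5a and Stat5b, the transcription factors that carry the prolactin signal, were lower, at -1.19 (adjusted p = 0.00345) and -0.75 (adjusted p = 0.000401). Stat5a had 154, 93.6, 264 and 130 CPM in GFP-negative libraries and 392, 240, 460 and 346 CPM in YFP-positive libraries. After the subtraction neither was called, with -0.43 for Stat5a (adjusted p = 0.578) and -0.23 for Stat5b (adjusted p = 0.575). Cish, an inhibitor of this pathway that Stat5 induces, had 104, 80.5, 141 and 114 CPM in GFP-negative libraries and 59.5, 59.3, 34.8 and 32.1 CPM in YFP-positive libraries. It was higher by 1.28 (adjusted p = 2.42e-06), and by 0.90 after the subtraction (adjusted p = 0.00528).

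Kit, Aldh1a3 and Cd200, of a list of 14 genes of the secretory progenitor branch, were lower in GFP-negative cells. The list summed to 352.1, 412.5, 478.1 and 544.8 CPM in GFP-negative libraries and to 821.9, 761.4, 1293 and 1202 CPM in YFP-positive libraries, which do not overlap. Cd200 made up most of the sum in every YFP-positive library. Without it, a step chosen after the data were seen, the sums were 248.7, 344.9, 183.3 and 453.3 CPM in GFP-negative libraries and 358.5, 227.9, 639.1 and 391.4 CPM in YFP-positive libraries, which overlap in both tissues. With Cd200, the progenitor-rich gates had between 4201 and 6545 CPM (GFP-positive) and between 4076 and 7355 CPM (YFP-negative). Of the 14 genes, 3 were lower and 2 higher, against 7.89% and 8.27% of all genes. Without GFP-negative duct replicate 2, 6 were lower, against 9.02%. Kit, the receptor of stem cell factor, had 3.31, 5.93, 3.81 and 32.6 CPM in GFP-negative libraries and 31.6, 10.8, 138 and 57.4 CPM in YFP-positive libraries, and averaged 819 CPM in GFP-positive and 1677 CPM in YFP-negative cells. The difference was -2.31 (adjusted p = 0.00773), and -2.71 after the subtraction (adjusted p = 0.0391). Aldh1a3, an enzyme of retinoic acid synthesis, was lower, at -2.42 (adjusted p = 0.00116), and its value of -1.81 after the subtraction was not called (adjusted p = 0.0908).

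Cd200, a surface glycoprotein gene on the same list, behaved differently from Kit across the gates. It had 103, 67.6, 295 and 91.4 CPM in GFP-negative libraries and 463, 533, 654 and 811 CPM in YFP-positive libraries, but averaged only 119 CPM in GFP-positive and 44.8 CPM in YFP-negative cells. It was thus more abundant in YFP-positive cells than in the progenitor-rich gates. Its difference was -2.23 (adjusted p = 0.000123), and -3.08 after the subtraction (adjusted p = 0.000365). Lbp and Lypd3 were the 2 higher genes, and both calls were lost without GFP-negative duct replicate 2 (adjusted p = 0.0545 and 0.216). The iron carrier gene Trf, which averaged 18880 CPM in GFP-positive cells, had 18.1, 33.0, 303 and 830 CPM in GFP-negative libraries and 19.5, 11.2, 144 and 106 CPM in YFP-positive libraries. It was higher by 1.46 (adjusted p = 0.00574), with overlap of the gates in TEBs.

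Signals of the Wnt and Notch pathways differed gene by gene. Of 17 Wnt and R-spondin genes, 4 were higher and 3 lower, against 8.27% and 7.89% of all genes, and 3 were higher and 4 lower without GFP-negative duct replicate 2. Wnt5a, a ligand of the noncanonical pathway that restrains ductal growth, had 1096, 1053, 328 and 420 CPM in GFP-negative libraries and 502, 561, 133 and 183 CPM in YFP-positive libraries. GFP-negative cells were above YFP-positive cells in each tissue, by 1.13 (SE 0.28, adjusted p = 0.014), and by 1.48 after the subtraction (adjusted p = 0.0419, but 0.067 without GFP-negative duct replicate 2). Axin2, a target of canonical Wnt signals, was higher by 1.77, but not without GFP-negative duct replicate 2 (adjusted p = 0.201). The secreted Dkk3 was higher by 2.02 on average. It rose in ducts (4.13, adjusted p = 2.26e-05) and was not called in TEBs (-0.09, adjusted p = 0.988). The Wnt inhibitor gene Nkd1 was higher by 3.14 (adjusted p = 0.00343) at levels between 0.175 and 1.88 CPM in GFP-negative and between 0.0300 and 0.132 CPM in YFP-positive libraries. Wnt11 and Wnt5b, both ligands, and the R-spondin receptor gene Lgr4 were lower, at -2.09, -1.90 and -0.50. Of 15 Notch genes, 3 were lower, against 7.89% of all genes, and 5 without GFP-negative duct replicate 2, against 9.02%. The 3 were the receptors Notch1 (-0.47, adjusted p = 0.0499) and Notch3 (-0.43, adjusted p = 0.00306) and the DNA-binding partner Rbpj, which stood at -1.25 in luminal and at -0.80 in basal cells.

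The interferon response genes rose together. Type I and type III interferons switch on this program through their receptors, and its products recognise or block viral RNA. Of 24 listed genes, 18 were higher in GFP-negative cells and 6 did not pass, against 8.27% of all genes called higher. The list's median was 1.21, against 0 over all genes. The summed level was 1775, 1874, 617.5 and 620.2 CPM in GFP-negative libraries and 711.1, 798.9, 435.9 and 438.3 CPM in YFP-positive libraries. GFP-negative libraries were higher in each tissue, and TEBs were higher than ducts in both gates.

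Oas3, an activator of RNase L, had 58.9, 64.5, 2.04 and 3.62 CPM in GFP-negative libraries and 8.39, 8.97, 0.548 and 0.510 CPM in YFP-positive libraries. It was higher by 2.62 (SE 0.35, adjusted p = 5.62e-05), and by 3.01 after the subtraction (adjusted p = 0.0103). The antiviral radical enzyme viperin, Rsad2, had 84.3, 84.2, 6.97 and 12.5 CPM in GFP-negative libraries and 16.5, 20.8, 2.99 and 3.84 CPM in YFP-positive libraries, a difference of 1.84 (adjusted p = 0.000602). Isg15, a ubiquitin-like modifier, had 73.7, 69.9, 9.24 and 9.82 CPM in GFP-negative libraries and 20.3, 22.6, 3.98 and 7.83 CPM in YFP-positive libraries, a difference of 1.22 (adjusted p = 0.000137). Irf7, the factor that amplifies interferon production, was higher by 1.41 (adjusted p = 0.000309), and by 1.39 after the subtraction (adjusted p = 0.0118). In none of these 4 genes did the gates overlap within a tissue.

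The sites at which this program is switched on are short and can be read in the promoters. The interferon-stimulated response element has a core of GAAA, any 2 bases and GAAA again (GAAA-NN-GAAA), which was sought on both strands. Promoter windows of 300 bases, from 250 before to 50 after the transcript start, were taken from RefSeq (GRCm38.p6), and 17 of the 24 genes were matched. The core lay in the window of 11 of these 17 genes (64.7%), against 1079 of 27025 genes in the whole table (3.99%), overlapping matches on either strand counted. Of the 11 genes with a match, 8 were called higher in GFP-negative cells, and of the 6 without one, 5 were. Stretches of 80 bases from 4 genes called higher are shown 5′ to 3′ on the gene's strand, with the matched bases in capitals, to let the spacing and the neighbouring bases be compared.
Isg15: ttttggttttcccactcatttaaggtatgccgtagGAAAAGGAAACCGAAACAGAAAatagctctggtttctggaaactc
Oas1a: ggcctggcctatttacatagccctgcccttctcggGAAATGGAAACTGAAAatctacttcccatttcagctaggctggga
Oas3: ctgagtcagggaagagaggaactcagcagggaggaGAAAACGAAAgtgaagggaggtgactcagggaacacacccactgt
Rsad2: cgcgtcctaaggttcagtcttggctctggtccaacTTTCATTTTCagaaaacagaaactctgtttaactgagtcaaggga
They lie at chr4:156200852-156200931 (Isg15), chr5:120907501-120907580 (Oas1a), chr5:120777690-120777769 (Oas3) and chr12:26456528-26456607 (Rsad2), all on the minus strand. Isg15 holds 3 overlapping matches and Oas1a 2, while Oas3 holds 1, and Rsad2 holds 1 on the opposite strand. A match is a property of the letters and does not show that a factor was bound in these cells.

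By tissue, more interferon genes passed the test in TEBs. There 20 of the 24 genes were higher (3.84% of all genes), and in ducts 11 were higher and Ifit2 was lower (5.26% and 4.55%). The difference between the tissues passed the test for Ifit2 alone among the 24, an RNA-binding antiviral protein, with 5.10, 3.61, 0.168 and 1.35 CPM in GFP-negative libraries and 1.19, 1.36, 3.39 and 3.18 CPM in YFP-positive libraries (TEB minus duct 3.88, SE 0.71, adjusted p = 0.0438). The list's medians were 1.71 in TEBs and 0.83 in ducts. Without GFP-negative duct replicate 2, 17 of the 24 were higher and Ifit2 was lower in the comparison averaged over tissues.

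Part of the interferon difference was present between the basal cells too. The basal sums were 267.9, 337.4, 181.3 and 201.9 CPM in the Elf5 model and 147.4, 173.4, 210.7 and 210.0 CPM in the PRcr model, so basal Elf5 cells were higher in TEBs and lower in ducts. In basal cells 3 of the 24 genes were higher and Ifih1 was lower, against 4.54% and 5.44% of all genes. After the subtraction 9 of the 24 were higher (7 without GFP-negative duct replicate 2), against 3.48% of all genes, and the median was 0.92. The order of the tissues then turned round, though the difference between tissues after the subtraction was not tested. In TEBs edgeR's test called 0 of the 24 after the subtraction, with 5 at an unadjusted p under 0.05 and a median of 0.41, while in ducts 8 were higher and the median was 1.59. Of all genes, 1.83% were called higher after the subtraction in TEBs and 1.43% in ducts. Oas1a, with 72.5, 76.4, 17.3 and 12 CPM in GFP-negative libraries and 24.4, 22.2, 6.32 and 3.30 CPM in YFP-positive libraries, was higher by 1.64 in luminal and 1.11 in basal cells, and its 0.53 after the subtraction was not called (adjusted p = 0.376). In TEBs of the other luminal gates the interferon sum was 1077 and 1321 CPM with GFP and 568.6 and 600.4 CPM without YFP. In their ducts it was 502.3 and 612.4 CPM with GFP and 707.5 and 578.2 CPM without YFP. GFP-positive libraries were thus higher in TEBs, as basal Elf5 libraries were, and overlapped the YFP-negative ones in ducts. What part the model has in the interferon difference was not tested.

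**Figure D4:**
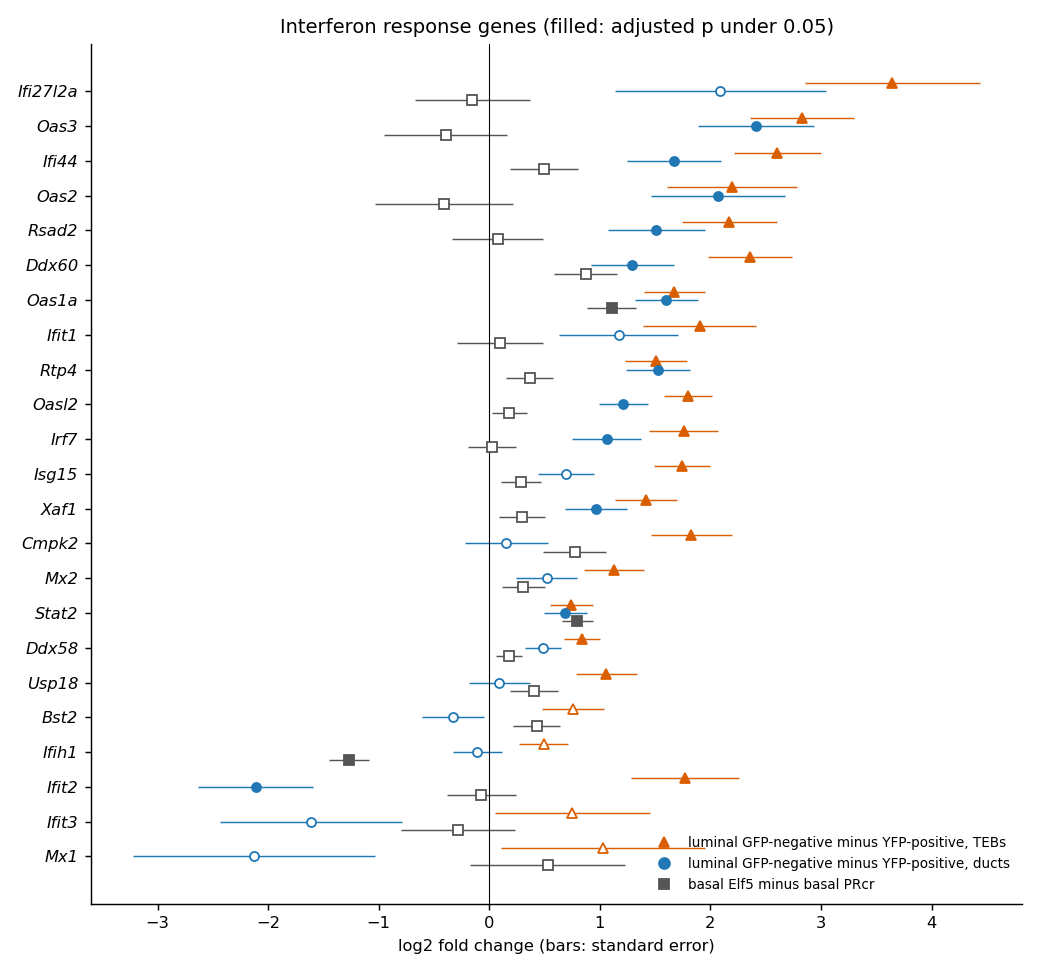
Log2 differences of 23 of the 24 interferon response genes, with standard errors, for GFP-negative minus YFP-positive cells in TEBs and in ducts and for basal Elf5 minus basal PRcr cells. Most luminal values lie above 0 and those in TEBs lie farthest, with Ifit2 at 1.77 in TEBs and -2.11 in ducts.

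Genes of class I antigen presentation were called higher in both cell types. Of 10 class I genes, 6 were higher in GFP-negative luminal cells (7 without GFP-negative duct replicate 2), against 8.27% of all genes. In basal Elf5 cells 5 were higher, against 4.54%. After the subtraction 1 was higher and 1 lower, against 3.48% and 2.81%. H2-D1, a class I heavy chain, had 1782, 2029, 1098 and 1101 CPM in GFP-negative libraries and 777, 757, 618 and 536 CPM in YFP-positive libraries. It was higher by 1.12 in luminal and by 0.81 in basal cells, and 0.32 remained after the subtraction (adjusted p = 0.288). H2-K2 was higher by 3.03 in luminal and 4.06 in basal cells. The heavy chain genes are close copies that vary between mouse strains, so reads may be shared among them and their counts are uncertain. Of 7 class II genes 1 was called, against 7.89% of all genes called lower. It was H2-Ab1, which fell by 3.28 (adjusted p = 0.000456) and reached at most 1.71 CPM in the gates. The list's medians were -0.12 in luminal and -0.42 in basal cells. Psmb8, an immunoproteasome subunit in the same gene complex, was higher by 0.97 and 0.93, with 0.04 after the subtraction.

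Other genes separated the models in both cell types. Rps2 (chr17:24718121-24721927), a protein of the small ribosomal subunit, had 22.6, 21.5, 34.5 and 26.2 CPM in GFP-negative libraries and 415, 390, 454 and 473 CPM in YFP-positive libraries. Basal cells had 31.2, 33.6, 28.7 and 29.9 CPM in the Elf5 model and 375, 412, 422 and 408 CPM in the PRcr model. The difference was -4.06 in luminal cells (adjusted p = 2.96e-13) and -3.71 in basal cells (adjusted p = 9.71e-13). Rpl29, of the large subunit, showed -4.59 and -4.33. Both genes have many processed copies in the genome, so these counts depend on how reads with several matches were treated, which is not given in the sources used here.

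Wdfy1, a scaffold protein gene of endosomes, had 134, 139, 117 and 107 CPM in GFP-negative libraries and 27.7, 28.4, 35.0 and 25.5 CPM in YFP-positive libraries. Its difference was 2.08 in luminal and 1.57 in basal cells, and 0.52 was left after the subtraction (adjusted p = 0.065). Nnt, a mitochondrial transhydrogenase gene known to be truncated in some C57BL/6 substrains, was higher by 1.27 in luminal and 1.13 in basal cells. It had 40.9, 44.4, 53.2 and 60.2 CPM in GFP-negative libraries and 19.3, 19.5, 19.4 and 23.4 CPM in YFP-positive libraries, and 0.14 was left after the subtraction (adjusted p = 0.648). Sycp1, a protein of meiotic chromosome pairing, had 3.74, 4.96, 3.39 and 8.86 CPM in GFP-negative libraries and 0 counts in YFP-positive libraries, at least 281-fold against the floor of 3 counts. Basal cells had between 5.38 and 18.4 CPM in the Elf5 model and at most 0.0486 CPM in the PRcr model. Pianp, a neural membrane protein gene, had 17.5 ± 3.91 CPM in GFP-negative libraries (SD, n = 4) and 1 count in all over the YFP-positive libraries, beside 37.4 to 88.1 CPM in basal Elf5 and 1.38 to 3.48 CPM in basal PRcr cells. Its luminal difference exceeded the basal one and was called after the subtraction (adjusted p = 1.55e-05). Between the other luminal gates, GFP-positive minus YFP-negative, edgeR gave 8.29 for Pianp (adjusted p = 3.7e-09). Csn1s1, a casein gene, was higher by 3.04 in luminal and 3.17 in basal cells, but in TEBs alone its luminal difference was not called (adjusted p = 0.361). Myo7a, an unconventional myosin, stood at -5.81 in luminal and at -3.65 in basal cells, and -2.17 was left after the subtraction (adjusted p = 0.0357). GFP-positive minus YFP-negative cells gave -5.505 for Myo7a (adjusted p = 1.76e-07). What part the model has in the values left for Pianp and Myo7a was not tested.

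The shared genes were unevenly spread over the chromosomes. Chromosome 17 held 69 of them among 859 genes tested (8.03%), against 3.95% over all chromosomes. Within it, 16 of 121 genes (13.2%) between 30 and 35 Mb and 16 of 90 genes (17.8%) between 35 and 40 Mb were shared, a stretch that holds the class I genes H2-K2, H2-D1 and H2-Q1 and Psmb8. Luminal calls made again in their direction after the subtraction were 29 of those on chromosome 17 (3.38%), against 4.2% of all genes tested. Among up to 20 neighbours on each side of the reporter loci, 2 of 35 genes tested around Elf5 were shared (Cd59a and Cstf3). Around Elf5, 6 of the 35 were called in luminal and 5 in basal cells. Around Pgr 3 of 27 were called in luminal and 2 in basal cells, and around Gt(ROSA)26Sor 1 and 3 of 35, with different genes in each comparison. Of all genes, 8.27% were higher and 7.89% lower in the luminal comparison, and 4.54% and 5.44% in the basal one. The strains are not given, and what part a strain difference has in the shared genes was not tested.

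**Figure D5:**
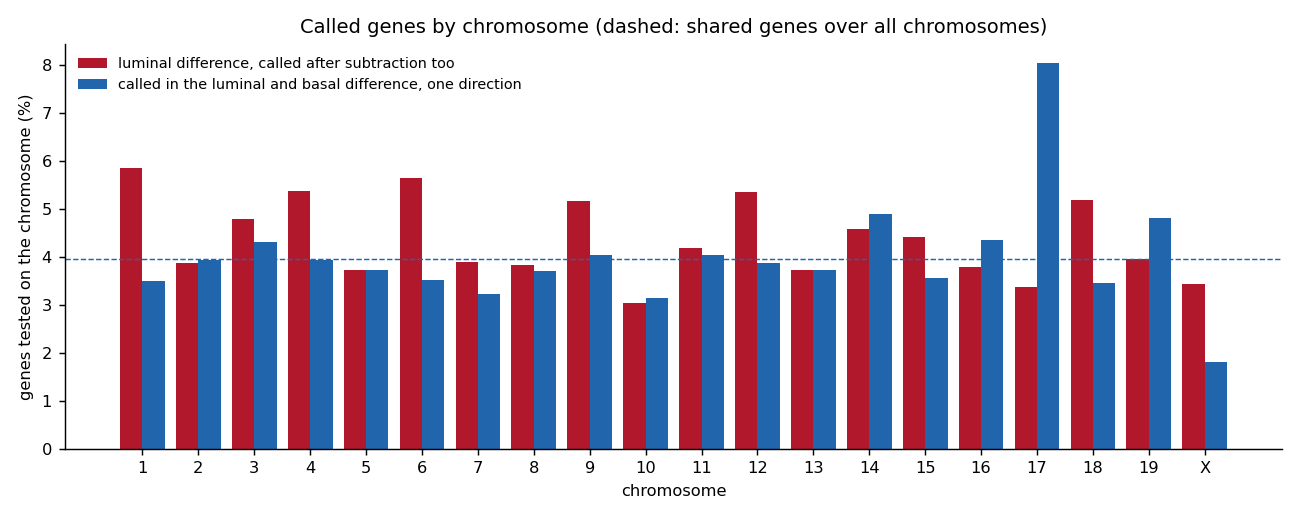
Percent of the genes tested on each chromosome that were called in the same direction in the luminal and the basal comparison, and percent called in the luminal comparison and again in that direction after the subtraction. The dashed line is the share of all genes called in both cell types. Chromosome 17 reaches 8.03% shared genes, against 3.95% over all genes.

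Of the 13 protein genes of the mitochondrial genome, 10 were higher in GFP-negative cells, against 8.27% of all genes, with a median of 0.41. The 13 summed to between 37240 and 49220 CPM in GFP-negative and between 29180 and 32020 CPM in YFP-positive libraries. One of them, mt-Co1, a subunit of cytochrome oxidase, was called after the subtraction (0.45, adjusted p = 0.036). Of 18 cholesterol synthesis genes, 5 were lower and 1 higher (6 and 0 without GFP-negative duct replicate 2), against 7.89% and 8.27% of all genes. After the subtraction Cyp51 (-0.62, adjusted p = 0.0213) and Sc5d (-0.81, adjusted p = 0.000488), both enzymes of late sterol synthesis, were called lower. Of all genes, 2.81% were. The 18 S phase genes had a median of -0.24 and overlapping sums, 432.8 to 1682 CPM in GFP-negative and 626.6 to 1939 CPM in YFP-positive libraries. Of 20 genes of the G2 and M phases, 1 was called, against 7.89% of all genes called lower. It was the mitotic kinase gene Aurka, which fell by 1.17 but was not called without GFP-negative duct replicate 2 (adjusted p = 0.0515).

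The tissues were compared by testing whether the gate difference itself changed between TEBs and ducts. In TEBs 696 genes were higher (3.84%) and 709 lower (3.92%, 7.76% in all), and in ducts 952 were higher (5.26%) and 824 lower (4.55%, 9.81% in all). The difference between tissues was called for 35 genes (0.193%), of which 16 (0.0884%) had a larger and 19 (0.105%) a smaller log2 difference in TEBs. These counts rest on 2 libraries a group and moved strongly when single libraries were left out. Without GFP-negative duct replicate 1 the count of 35 became 840, and without GFP-negative duct replicate 2 it became 177 (0.977%). Without GFP-negative TEB replicate 2 it became 6, and without YFP-positive TEB replicate 2 it became 3.

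Among these genes Pde2a, a cyclic nucleotide phosphodiesterase gene, had 9.64, 14.9, 0.896 and 0.785 CPM in GFP-negative libraries and 2.86, 1.59, 4.75 and 2.52 CPM in YFP-positive libraries. It was higher in GFP-negative TEBs and lower in GFP-negative ducts, and the TEB minus duct difference was 4.57 (SE 0.61, adjusted p = 0.0065). Grb10 and Irs2 are both adaptors of insulin and insulin-like growth factor receptors. Grb10 had 67.5, 50.9, 35.2 and 26.4 CPM in GFP-negative libraries and 4.64, 3.69, 10.9 and 9.27 CPM in YFP-positive libraries, and Irs2 had 91.3, 58.3, 40.8 and 39.4 CPM in GFP-negative libraries and 13.4, 15.6, 29.1 and 23.8 CPM in YFP-positive libraries. Grb10 was called higher in both tissues and Irs2 in TEBs but not in ducts (adjusted p = 0.0956). The TEB minus duct difference was 2.22 for Grb10 (adjusted p = 0.0065) and 1.77 for Irs2 (adjusted p = 0.0355). Grb10 was also higher by 2.01 in basal Elf5 cells (adjusted p = 1.23e-07).

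Genes that cells induce within minutes of a stimulus were also read by tissue. Of 22 such genes, 7 were lower and 2 higher in GFP-negative TEBs, against 3.92% and 3.84% of all genes, and 6 were higher in GFP-negative ducts, against 5.26%. Their summed level was 33380 CPM in GFP-negative duct replicate 2 and 22080 CPM in GFP-negative duct replicate 1, against 23650 and 17380 CPM in YFP-positive ducts. Averaged over tissues, 5 were higher and 3 lower, against 8.27% and 7.89% of all genes. Without GFP-negative duct replicate 2, 3 were higher and 7 lower, against 7.15% and 9.02%. Fos, a subunit of the AP-1 factor, had 440, 540, 3347 and 5749 CPM in GFP-negative libraries and 1849, 1909, 4156 and 2820 CPM in YFP-positive libraries (TEB minus duct -2.32, SE 0.35, adjusted p = 0.0168). The gates did not overlap in TEBs and overlapped in ducts. Klf2, a transcription factor gene of the same list, was higher in both tissues, with 73.5, 57.8, 282 and 260 CPM in GFP-negative libraries and 27.9, 30.2, 65.3 and 51.4 CPM in YFP-positive libraries. Its difference was 1.69 (SE 0.14, adjusted p = 2.59e-07), and 1.79 after the subtraction (adjusted p = 2.35e-05).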

How the data were processed

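RNA was measured by bulk RNA-seq of sorted mammary cells (TruSeq RNA v2, which does not mark strand). The authors deposited whole-number counts per gene, made with featureCounts on mm10 per the submitters' processing notes (aligner and handling of multiple matches: not given in the sources used here). Libraries held 31.3 to 52.5 times 1e6 counts, so that 3 counts make 0.0579 to 0.097 CPM; such floors cover counting error only. Symbols came from RefSeq for 25275 of 27179 genes and from GENCODE for 18. No replicate pair matched within sampling noise (chi-square over degrees of freedom 17.2 to 165).

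Genes were kept by filterByExpr (minimum count 10, total 15), which left 18109. One robust quasi-likelihood model (edgeR 4.0.16, limma 3.58.1, R 4.3.3) with TMM scaling and a mean for each of 12 groups was fitted to all 24 libraries (12 residual degrees of freedom). TEBs and ducts were weighted equally, so tissue was blocked. The subtraction is the contrast of the luminal minus the basal difference. SE is the size of the log2 fold change over the square root of F. For some genes with 0 counts in a compared group, averaged contrasts returned p near 1 beside a large fitted change, and these were not called. They were 274 genes in the luminal, 114 in the basal and 728 in the subtracted contrast. Other genes with a group at 0 counts, such as Ang5, Ang4, Sycp1 and Pianp, were called in the luminal contrast.

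Genes were named by size of change among called genes with at least 5 CPM in a compared population or group. This was done in the luminal contrast, after the subtraction, in both cell types, and between tissues (Ifit2, Cish, Socs3, Fosb and Sqle through their lists). Libraries had to lie apart in both tissues only in the luminal contrast. There and after the subtraction, genes also had to be called without GFP-negative duct replicate 2. List members were named besides, and Elf5 as the reporter's gene; 2 genes are not reported here. The members, lists and rules were chosen with earlier results of these data known. The fit was tested on simulated data. Alternatives were DESeq2 1.42.0, other scaling, filters, designs, model differences and left-out libraries; those chosen after seeing the data were a limma trend fit, a progenitor sum without Cd200 and leaving out both libraries with keratinocyte transcripts.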

Additional observations from a re-analysis of the deposited data

Results flagged for a closer look

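In 5 of 104 sets of 4 libraries 1 library lay far from the other 3. Chance gives this in about 1 of 20, so the count is close to that of chance. The sets mix TEB and duct libraries, so this rate is only approximate. In all 5 sets the library apart was a GFP-negative duct library. Duct replicate 2 was highest in the summed keratinocyte (2899 CPM), basal and myoepithelial (3579 CPM) and fibroblast (383.3 CPM) lists and lowest in the EGF family list (1393 CPM). Duct replicate 1 was highest in the hormone-sensing list (9954 CPM).

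Among named and listed genes, the gate difference itself differed between TEBs and ducts in edgeR's quasi-likelihood test for 15. It was larger in TEBs (log2, TEB minus duct) for Pde2a (4.57), Ifit2 (3.88), Apobec1 (2.76), Grb10 (2.22), Irs2 (1.77), Ets1 (1.71) and Sqle (1.06). It was smaller in TEBs for Dkk3 (-4.22), Mcc (-3.65), Fos (-2.32), Ndrg2 (-2.12), Fam117a (-1.76), Fosb (-1.66), Socs3 (-1.58) and Cish (-1.29).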

How the results depend on the processing

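With groups of 2, counts of calls depend on the spread estimate, and changes under about 2-fold are often missed. Counts are given higher and lower. Leaving out 1 library gave, from lowest to highest, 1010 to 1959 and 972 to 1871 in the luminal comparison, 531 to 664 and 612 to 933 in basal cells, 427 to 1148 and 358 to 795 after the subtraction, 267 to 1720 and 439 to 1314 in ducts, 310 to 941 and 291 to 1023 in TEBs, 3 to 840 between tissues and 507 to 892 shared. After the subtraction the highest counts came without GFP-negative duct replicate 1. In single tissues the lowest came without YFP-positive duct replicate 2 (ducts), YFP-positive TEB replicate 2 (TEBs, higher) and GFP-negative TEB replicate 2 (TEBs, lower).

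An additive tissue term gave 636 and 626 (luminal), 253 and 305 (basal), 120 and 115 (after the subtraction) and 259 shared. DESeq2 gave 1011 and 809 after the subtraction, 1608 higher in ducts and 437 between tissues. Without both libraries with keratinocyte transcripts there were 835 lower after the subtraction, 539 higher in ducts, 1110 lower in TEBs and 184 between tissues, and Krt10 turned to -0.01. A fit that was not robust gave 22 between tissues. With GFP-positive minus YFP-negative as the model difference, 713 were higher and 963 lower; of the 630 higher and 509 lower calls after the subtraction, 459 were made again in the same direction and 27 in the other, and Ccnd1 (0.41), Trf (-1.66), Cldn3 (-0.18), Tapbp (-0.08), Relb (-0.14) and Wnt5a (-0.95) turned round; these gates also differ from each other in their sort. The cause was not tested. Same-numbered libraries of the gates did not deviate together (r = -0.34 in ducts and -0.081 in TEBs). Within a model, those of different populations or tissues gave r of 0.087 to 0.53 (Elf5) and -0.081 to 0.34 (PRcr), and the labels state no pairing. The replicate block, by number within a model, gave 76 between tissues and moved no other count by over 1.5 times; with it Notch1 and Axin2 in the luminal comparison, Wnt5a after the subtraction and Mcc between tissues were not called.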
